A study of Mus musculus with 12 samples.

Results

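Rcan1, Lrrk2, Scimp, Snai1, Hic1 and Ccno are 6 genes of signaling and gene regulation, out of 55335 genes counted in each library. They were picked because their RNA level differed between tumor-associated neutrophils (TANs) of PyMT-Cxcr2-/- mice and TANs of PyMT mice, so their values in that comparison describe the choice and were not tested. PyMT mice carry the polyoma middle T oncogene, driven in the mammary epithelium by the MMTV promoter, and develop mammary tumors. PyMT-Cxcr2-/- mice carry the same oncogene and lack the chemokine receptor Cxcr2 in every cell, not in neutrophils alone. The remaining group was made of bone marrow (BM) neutrophils of WT mice without the oncogene. All mice were of the FVB background, were 10 weeks old and were housed under SOPF conditions. Each group had 4 libraries, 12 in all, and the labels do not say whether a library came from 1 mouse or from several, so p-values measure the spread between libraries. TANs and BM neutrophils were enriched for CD11b and sorted as CD45+ CD11b+ Ly6G+ F4/80- cells. Tumors were enzymatically dissociated and bone marrow was not, and the marrow came from tumor-free mice, so that tissue, tumor and dissociation cannot be told apart in a comparison of TANs with BM neutrophils. BM neutrophils of Cxcr2-/- mice were not analysed here.

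The 6 genes act at different steps between a receptor and the nucleus. Rcan1 binds and inhibits calcineurin, the calcium-activated phosphatase that sends NFAT transcription factors to the nucleus, and is itself an NFAT target. Lrrk2 is a large kinase with a GTPase domain that phosphorylates Rab GTPases on vesicles, and it is abundant in neutrophils. Scimp is a small transmembrane adaptor that carries the Src-family kinase Lyn to immune receptors, Toll-like receptors among them. Snai1 and Hic1 are zinc-finger repressors: Snai1 silences E-cadherin during epithelial-mesenchymal transition, and Hic1, a tumor suppressor often methylated in cancer, works with CtBP and the deacetylase Sirt1. Ccno is an atypical cyclin that multiciliated cells need to multiply their centrioles.

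All 6 are protein-coding genes of the mm10 build. In GENCODE M21, Rcan1 (ENSMUSG00000022951) spans chr16:92391953-92470867 on the minus strand, Lrrk2 (ENSMUSG00000036273) chr15:91673175-91816120 on the plus strand, and Scimp (ENSMUSG00000057135) chr11:70790932-70812586 on the minus strand. Snai1 (ENSMUSG00000042821) lies at chr2:167538195-167542814 on the plus strand, Hic1 (ENSMUSG00000043099) at chr11:75164565-75169519 on the minus strand, and Ccno (ENSMUSG00000042417) at chr13:112987802-112990777 on the plus strand. The RefSeq table of promoters (GRCm38.p6, from 250 bases before to 50 bases after a start) matched 5 of the 6 genes, all but Scimp, with 7 windows. They were searched on both strands for the NFAT core GGAAA, the E-box CAGGTG bound by Snail proteins, the AP-1 site TGANTCA, the cAMP response element TGACGTCA and the TATA motif TATAAA. Capitals mark every match in the windows printed here, which are shown because Rcan1 has separate starts, the windows of the repressors Snai1 and Hic1 held an E-box, and Ccno had the widest range of levels.
Rcan1, upstream start, chr16:92466120-92466419, minus strand: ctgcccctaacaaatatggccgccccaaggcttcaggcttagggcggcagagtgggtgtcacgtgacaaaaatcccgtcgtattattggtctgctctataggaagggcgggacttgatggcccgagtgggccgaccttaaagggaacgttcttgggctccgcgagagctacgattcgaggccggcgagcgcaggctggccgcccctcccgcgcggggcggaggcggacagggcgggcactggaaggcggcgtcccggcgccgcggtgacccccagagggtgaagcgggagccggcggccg
Rcan1, downstream start, chr16:92400029-92400328, minus strand: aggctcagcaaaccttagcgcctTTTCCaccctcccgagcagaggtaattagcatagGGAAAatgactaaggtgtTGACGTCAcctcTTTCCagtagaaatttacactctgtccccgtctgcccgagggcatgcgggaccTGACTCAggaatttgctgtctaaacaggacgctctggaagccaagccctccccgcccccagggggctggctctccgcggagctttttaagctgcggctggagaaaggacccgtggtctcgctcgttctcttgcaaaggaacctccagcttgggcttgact
Snai1, chr2:167537945-167538244, plus strand: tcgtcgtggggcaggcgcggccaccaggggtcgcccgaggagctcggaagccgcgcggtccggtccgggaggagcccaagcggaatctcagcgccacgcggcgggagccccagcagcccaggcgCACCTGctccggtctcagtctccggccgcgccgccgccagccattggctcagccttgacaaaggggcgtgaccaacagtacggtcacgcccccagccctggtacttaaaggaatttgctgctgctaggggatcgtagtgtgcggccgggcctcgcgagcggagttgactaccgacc
Hic1, downstream start, chr11:75168103-75168402, minus strand: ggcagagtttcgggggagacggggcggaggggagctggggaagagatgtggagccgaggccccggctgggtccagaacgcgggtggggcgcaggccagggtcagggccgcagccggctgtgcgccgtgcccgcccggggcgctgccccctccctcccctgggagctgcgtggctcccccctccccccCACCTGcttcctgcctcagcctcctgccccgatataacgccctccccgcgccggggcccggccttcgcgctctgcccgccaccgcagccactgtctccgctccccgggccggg
Ccno, chr13:112987552-112987851, plus strand: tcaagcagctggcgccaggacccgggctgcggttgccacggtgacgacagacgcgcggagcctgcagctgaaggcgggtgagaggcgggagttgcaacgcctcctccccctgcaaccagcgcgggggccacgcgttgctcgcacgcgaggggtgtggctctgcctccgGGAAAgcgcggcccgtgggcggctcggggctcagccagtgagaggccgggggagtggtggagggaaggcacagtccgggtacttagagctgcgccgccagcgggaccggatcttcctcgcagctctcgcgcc
The downstream Rcan1 start, known for the isoform that calcineurin and NFAT induce, held the NFAT core 3 times, 227, 193 and 163 bases before the start, a cAMP response element at 175 bases and an AP-1 site at 110 bases. The upstream Rcan1 window held no match to any of the 5 motifs. The Snai1 window held a single E-box 126 bases before the start, and the downstream Hic1 window held a single E-box 63 bases before it. The Ccno window held the NFAT core 82 bases before the start, and the Lrrk2 window held it at 212, 178 and 128 bases. The upstream Hic1 window, not printed here, held the NFAT core just after the start, at base 10. Of 32817 promoter windows in the table, 61.3% held the NFAT core, 20.2% the E-box, 7.81% the AP-1 site, 1.79% the cAMP response element and 13.6% the TATA motif. A match describes letters, and the counts are per gene, so they do not separate the Rcan1 transcripts.

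The libraries held 25032704 to 51351569 counts on genes. A count of 3, taken as the detection floor, corresponded to 0.0566 to 0.102 CPM (counts per 1000000 counts, scaled with TMM factors over the 12 libraries), for counting error only. Cxcr2 itself ranged over 1044 to 1524 CPM in the PyMT group, over 8.82 to 10.0 CPM in the Cxcr2-/- group and over 1825 to 2253 CPM in WT marrow (the BM neutrophils), as the labels state. The summed CPM of 8 neutrophil markers, the deleted Cxcr2 among them, was 73993 to 98333 in BM neutrophils, 17639 to 28822 in TANs without Cxcr2 and 10428 to 16570 in PyMT TANs. Markers of other cells were also present in TANs: the 8 macrophage markers, all detected in each library, summed to 1317 to 2703 CPM in TANs with Cxcr2 (those of PyMT mice) and to 1314 to 2193 CPM in TANs without it (those of PyMT-Cxcr2-/- mice), against 238 to 332 CPM in BM neutrophils. Among them Adgre1, which encodes the F4/80 antigen excluded by the sort, ranged over 68.7 to 192 CPM with Cxcr2, over 77.0 to 142 CPM without it and over 8.66 to 12.1 CPM in WT marrow. In such bulk samples, fewer cells of a type and less RNA per cell cannot be told apart.

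**Figure D1:**
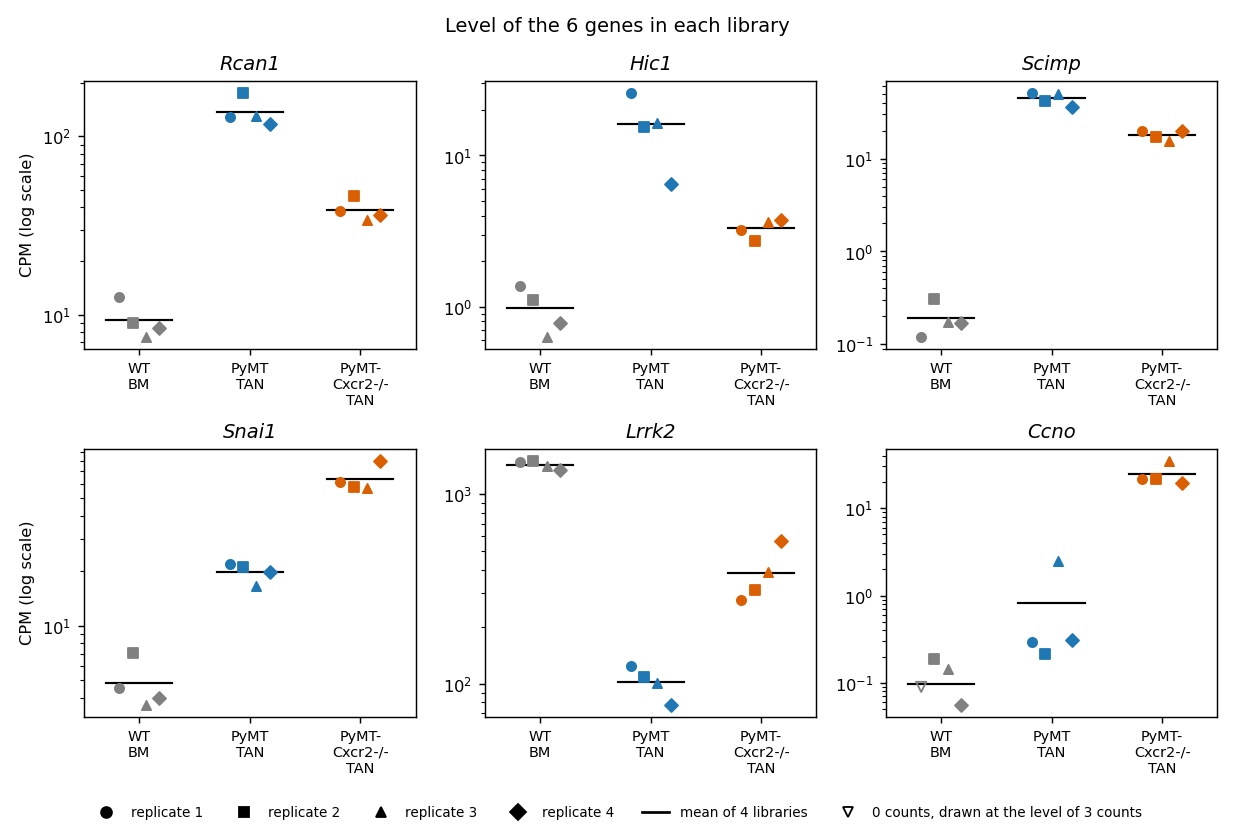
Level of each gene in CPM (log scale) in every library, by group, with marker shapes for replicates and a bar at the mean of 4 libraries. An open triangle stands for 0 counts and is drawn at the level of 3 counts. Rcan1, Hic1 and Scimp were highest in PyMT TANs, Snai1 and Ccno in PyMT-Cxcr2-/- TANs and Lrrk2 in BM neutrophils (1349 to 1495 CPM), and in each panel the 3 groups did not overlap.

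Rcan1, the calcineurin inhibitor, was lower in TANs without Cxcr2. Its level in the 4 PyMT TAN libraries was 129, 175, 129 and 117 CPM, a mean of 137 ± 25.5 (SD, n = 4). In PyMT-Cxcr2-/- TANs it was 38.3, 46.3, 34.0 and 36.2 CPM, a mean of 38.7 ± 5.38 (SD, n = 4). Every PyMT-Cxcr2-/- library was thus below every PyMT library, and the lowest PyMT library was 2.52 times the highest PyMT-Cxcr2-/- library. The log2 fold change of PyMT-Cxcr2-/- over PyMT TANs was -1.83 ± 0.17 (SE), a 3.56-fold lower level. BM neutrophils held the least, 12.6, 8.95, 7.51 and 8.38 CPM. The antisense gene Gm46555 overlaps Rcan1 without sharing exon bases and stayed between 0.341 and 2.21 CPM in all 12 libraries, far under Rcan1.

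Scimp, the adaptor of Lyn, was also lower without Cxcr2, and it was near the detection floor in BM neutrophils. In PyMT TANs it was at 50.6, 42.0, 49.4 and 35.7 CPM, a mean of 44.4 ± 6.94 (SD, n = 4). In PyMT-Cxcr2-/- TANs it was at 19.8, 17.1, 15.6 and 19.8 CPM, a mean of 18.1 ± 2.07 (SD, n = 4). The groups did not overlap, and the difference was the smallest of the 6 genes on the log2 scale, -1.30 ± 0.16 (SE), or 2.46-fold. BM neutrophils gave 0.120, 0.310, 0.172 and 0.168 CPM, which came from 4, 10, 6 and 6 counts, just above the floor. In PyMT TANs, by contrast, Scimp drew 1449 to 2398 counts a library.

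Hic1, a repressor, was lower without Cxcr2 and varied most among PyMT TAN libraries after Ccno. Its 4 values there were 25.8, 15.5, 16.4 and 6.50 CPM, a mean of 16.04 ± 7.88 (SD, n = 4) and a coefficient of variation of 49.2%. In PyMT-Cxcr2-/- TANs they were 3.22, 2.72, 3.66 and 3.74 CPM, a mean of 3.34 ± 0.468 (SD, n = 4). The groups did not overlap, with the PyMT library at 6.50 CPM closest to the PyMT-Cxcr2-/- libraries. The log2 fold change was -2.27 ± 0.36 (SE), a 4.82-fold lower level. BM neutrophils were at 1.38, 1.11, 0.631 and 0.785 CPM. The protein-coding gene Smg6 ends 116 bases from Hic1 on the opposite strand and had a mean of 47.7 ± 6.26 CPM in PyMT TANs, of 43.3 ± 2.10 CPM without Cxcr2 and of 32.3 ± 1.63 CPM in marrow (SD, n = 4), with a log2 fold change of -0.14 ± 0.14 (SE) between the TAN groups (edgeR quasi-likelihood test, Benjamini-Hochberg adjusted p = 0.73).

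Snai1, the repressor of E-cadherin, was higher without Cxcr2. The PyMT TAN libraries held 21.8, 20.9, 16.6 and 19.5 CPM, a mean of 19.7 ± 2.28 (SD, n = 4). The PyMT-Cxcr2-/- libraries held 61.6, 57.5, 56.6 and 79.8 CPM, a mean of 63.9 ± 10.8 (SD, n = 4). The groups did not overlap, and 3 of the 4 PyMT-Cxcr2-/- libraries lay between 56.6 and 61.6 CPM, with replicate 4 above them. The log2 fold change was 1.69 ± 0.16 (SE), or 3.23-fold, and 1.59 without PyMT-Cxcr2-/- replicate 4. In BM neutrophils Snai1 was at 4.56, 7.06, 3.67 and 4.01 CPM, below both kinds of TANs.

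Lrrk2, the Rab kinase, was higher without Cxcr2 as well, but toward the level of BM neutrophils rather than away from it. PyMT TANs held 124, 108, 101 and 77.6 CPM, a mean of 103 ± 19.3 (SD, n = 4). PyMT-Cxcr2-/- TANs held 276, 312, 389.6 and 565 CPM, a mean of 386 ± 129 (SD, n = 4), with replicate 4 again the highest. BM neutrophils held 1471, 1495, 1417 and 1349 CPM, a mean of 1433 ± 64.7 (SD, n = 4), with a coefficient of variation of 4.52%. No groups overlapped. The log2 fold change between the TAN groups was 1.90 ± 0.23 (SE), or 3.74-fold, and 1.68 without PyMT-Cxcr2-/- replicate 4.

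Ccno, the cyclin of multiciliated cells, differed most. It was at 0.295, 0.214, 2.49 and 0.312 CPM in PyMT TANs, from 14, 8, 73 and 15 counts, a mean of 0.828 ± 1.11 (SD, n = 4). PyMT-Cxcr2-/- TANs held 21.8, 21.5, 34.5 and 19.6 CPM, from 837 to 1670 counts, a mean of 24.3 ± 6.84 (SD, n = 4). The lowest PyMT-Cxcr2-/- library was 7.87 times the highest PyMT library, although PyMT replicate 3 stood well above the other 3 libraries of its group. The log2 fold change was 4.95 ± 0.75 (SE), or 30.8-fold, and 6.45 without PyMT replicate 3. It ranked 3 of 18463 genes by log2 fold change in this comparison, a rank that describes the choice of the gene. BM neutrophils drew 0, 6, 5 and 2 Ccno counts, at or near the floor, so that the highest BM library (0.186 CPM) and the lowest PyMT TAN library (0.214 CPM) were separated by a few counts only. Ccno is the neighbor of Mcidas, a coactivator of the multiciliated program that starts 3067 bases after it on the same strand. Mcidas drew 11, 14, 16 and 7 counts in PyMT-Cxcr2-/- TANs, 30 counts in PyMT replicate 2 and 0 in the other PyMT and all BM libraries, which was too few to pass the filter on low counts. Cdc20b, the other gene of this cluster, drew 0 counts in all 12 libraries, which allows up to 0.102 CPM in the library with the highest floor.

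All 6 genes passed the filter on low counts. Both kinds of TANs were without overlap in all 6 genes, 3 higher and 3 lower in PyMT-Cxcr2-/- TANs, and among the 18463 genes fitted this held for 12%, with 6.33% higher and 5.7% lower. The 6 genes belong to the 1.98% of genes past an adjusted p of 0.05 and 1.5-fold, 1.38% higher and 0.596% lower. The choice of the genes on this contrast fixed both counts, so neither is a test and nothing is read from them. Compared per kilobase of exon, the order of the genes changed between the groups. In PyMT TANs Rcan1 (44.5 ± 8.28 CPM per kb) and Scimp (41.1 ± 6.43) led and did not differ beyond their spread, followed by Snai1 (12.2 ± 1.41), Lrrk2 (8.69 ± 1.63), Hic1 (4.28 ± 2.10) and Ccno (0.324 ± 0.434). In PyMT-Cxcr2-/- TANs Snai1 (39.4 ± 6.67 CPM per kb) and Lrrk2 (32.6 ± 10.9) led within their spread, followed by Scimp (16.8 ± 1.92), Rcan1 (12.6 ± 1.74), Ccno (9.53 ± 2.68) and Hic1 (0.890 ± 0.125). In BM neutrophils Lrrk2 stood alone at 121 ± 5.47 CPM per kb, and Rcan1 (3.03 ± 0.721) and Snai1 (2.98 ± 0.946) came next (all SD, n = 4).

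The comparison of TANs with BM neutrophils asked how far TANs stood from neutrophils of the marrow, where neutrophils are made. It used the mean of both TAN groups, from which the difference the genes were chosen on cancels out, and so could be tested, with a limit for Ccno given below. Rcan1, Snai1, Ccno, Hic1 and Scimp rose in TANs and Lrrk2 fell (edgeR quasi-likelihood test over 19212 genes, Benjamini-Hochberg adjusted p under 0.05 and 1.5-fold). All 6 genes passed, Ccno as a description only. Among all genes 56.2% passed too, 31.7% higher and 24.4% lower, so that passing was common. In all 6 genes the 8 TAN libraries also lay wholly on one side of the 4 BM libraries, as did 46.8% of all genes, 22.8% higher and 24% lower. The median log2 fold change of all genes was 0.12 and the median of its size 1.08.

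Scimp rose most, by a log2 fold change of 7.19 ± 0.25 (SE; adjusted p = 3.18e-11). Ccno followed with 5.47 ± 0.82 (adjusted p = 4.41e-05), a value that rests on 13 counts in all BM libraries and was 4.80 without PyMT replicate 3. Ccno was low in both PyMT TANs and BM neutrophils. Its mean over TANs thus leans on the PyMT-Cxcr2-/- level it was chosen for (7.95 above BM neutrophils, against 3.0 in PyMT TANs), and its p-value is not free of that choice. Rcan1 rose by 2.96 ± 0.17 (adjusted p = 2.16e-09), Hic1 by 2.90 ± 0.35 (adjusted p = 3.93e-06) and Snai1 by 2.88 ± 0.19 (adjusted p = 8.03e-09). Those 3 changes lay within 1 SE of each other. Lrrk2 had a log2 fold change of -2.85 ± 0.16 (adjusted p = 1.97e-09), a 7.20-fold lower level in TANs.

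Set against BM neutrophils one at a time, the TAN groups stood on the same side for every gene but at different distances, given here without a test and with the same BM libraries in both. Rcan1 was 3.88 ± 0.19 (log2, SE) above BM neutrophils in PyMT TANs and 2.05 ± 0.18 in PyMT-Cxcr2-/- TANs. Hic1 was 4.03 ± 0.39 and 1.77 ± 0.37 above, and Scimp 7.84 ± 0.26 and 6.54 ± 0.25. Lrrk2 was at -3.80 ± 0.22 and -1.89 ± 0.20. For these 4 genes the TANs without Cxcr2 thus lay between BM neutrophils and PyMT TANs. Snai1 (2.03 ± 0.20 and 3.73 ± 0.21) and Ccno (3.0 ± 0.88 and 7.95 ± 0.88) had the reverse order, with PyMT-Cxcr2-/- TANs the farther from BM neutrophils.

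**Figure D2:**
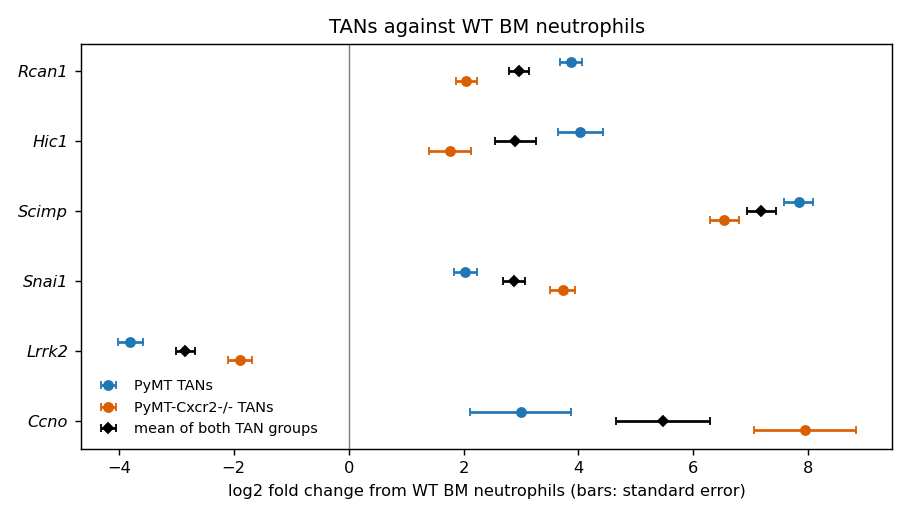
Log2 fold change from WT BM neutrophils of each gene, for either TAN group and for the mean of both (horizontal axis; bars are standard errors). Rcan1, Hic1, Scimp and Lrrk2 lie nearer to 0 in PyMT-Cxcr2-/- TANs, while Snai1 (2.03 and 3.73) and Ccno lie farther from it.

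The summed level of the immature neutrophil markers had the same order of groups as Lrrk2. The 9 markers, mostly granule genes of marrow precursors such as Camp, Ngp and Ltf, with the transcription factor Cebpe, summed to 784 to 1072 CPM with Cxcr2, to 2766 to 8429 CPM without it and to 36257 to 56998 CPM in WT marrow. Between the TAN groups, 4 of the 8 immature markers fitted (Lcn2, Camp, Ngp and Ltf) were higher in PyMT-Cxcr2-/- TANs, beside 1.38% of all genes. None of the 8 was lower. Of the 8 general neutrophil markers, 4 were higher too (Ly6g, S100a8, S100a9 and Retnlg), and only the deleted Cxcr2 was lower. Against BM neutrophils all 9 immature markers and 7 of the 8 general neutrophil markers fell in TANs, beside 24.4% of all genes. Lcn2, Camp, Ngp and Ltf carried most of the sum. The early granule genes Mpo (2.03 ± 2.34 CPM with Cxcr2 and 0.764 ± 0.503 without it), Prtn3 (1.60 ± 1.28 and 1.19 ± 0.412) and Elane (0.296 ± 0.486 and 0.282 ± 0.281) had lower means without Cxcr2, within their spread (SD, n = 4). PyMT-Cxcr2-/- replicate 4, the highest in Lrrk2 and Snai1, had the highest sum of its group, 8429 CPM against 2766 to 3606 CPM in the other 3. The part of these markers in the levels of Lrrk2 and Snai1 was not tested.

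Markers of macrophages, fibroblasts and mammary epithelium rose against BM neutrophils in all their members (8 of 8, 7 of 7 and 8 of 8), beside 31.7% of all genes. They did so alongside the 5 genes that rose, and their part in that rise was not tested. Between the TAN groups none of these 3 lists had a member past the thresholds with edgeR or with DESeq2, and their summed levels overlapped between the groups. The fibroblast list still differed from the others: all 7 of its log2 fold changes were above 0, from 1.05 (Pdgfrb) to 2.68 (Col3a1). Its median was 1.76, against -0.26 for the macrophage and -0.22 for the epithelial markers. At an unadjusted p under 0.05 the edgeR fit had 2 fibroblast markers higher in PyMT-Cxcr2-/- TANs and 0 macrophage or epithelial markers in either direction. Epithelial sums were 49.1 to 458 CPM with Cxcr2 and 89.6 to 323 CPM without it, against 0.0600 to 0.402 CPM in BM neutrophils, where 6 or 7 of the 8 markers were at 0 counts. Fibroblast sums, over 7 markers, were 1.96, 4.01, 14.3 and 11.4 CPM with Cxcr2 and 25.4, 37.1, 40.1 and 2.53 CPM without it, against 0.224 to 1.89 CPM in BM neutrophils. At 0 counts were up to 3 of the 7 markers in PyMT TANs, up to 1 without Cxcr2, and 2 to 5 in the marrow libraries. Ccno was highest in the library with the highest fibroblast sum in each TAN group, replicate 3 in both. In PyMT-Cxcr2-/- replicate 4, fibroblast markers were at 2.53 CPM and Ccno at 19.6 CPM. The part of fibroblast markers in the Ccno level was not tested. Of the other cells, endothelial markers had none past the thresholds between the TAN groups with either tool (0 of 4 also at an unadjusted p under 0.05, edgeR), and of the B and T cell markers Cd3d was higher without Cxcr2 (1 of 5). Endothelial sums were 17.1 to 35.8 CPM with Cxcr2, 19.6 to 23.8 CPM without it and 11.5 to 14.3 CPM in WT marrow, and B and T cell sums were 11.2 to 32.1, 26.3 to 51.3 and 226 to 263 CPM.

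**Figure D3:**
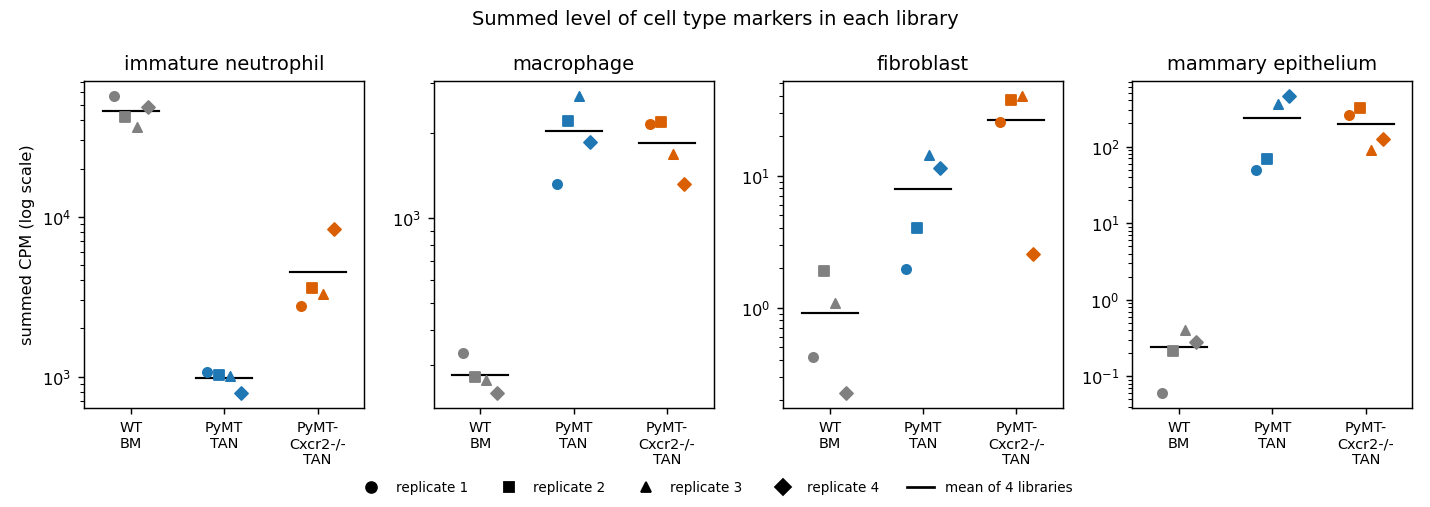
Summed CPM (log scale) of the markers of immature neutrophils, macrophages, fibroblasts and mammary epithelium in every library, with a bar at the mean of 4 libraries. The immature neutrophil sums rank as BM neutrophils, PyMT-Cxcr2-/- TANs and PyMT TANs without overlap, and the macrophage and epithelial sums of the TAN groups overlap.

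Few of the other genes of the pathways around the 6 genes passed the thresholds between the TAN groups. The 6 lists of 102 genes in all had 89 genes that could be fitted, and 3 of them were past the thresholds (3.37%, against 1.98% of all genes). All 3 were higher in PyMT-Cxcr2-/- TANs. Against BM neutrophils 24 of 90 fitted genes of these lists rose and 31 fell, 61.1% in all, near the 56.2% of all genes (31.7% higher and 24.4% lower), so the counts of each list against BM neutrophils are given as a description. Stim2, a calcium sensor of the endoplasmic reticulum that opens Orai channels upstream of calcineurin, had 54.4 ± 6.04 CPM with Cxcr2 and 107 ± 15.9 CPM without it (SD, n = 4), a log2 fold change of 0.98 ± 0.15 (SE; edgeR adjusted p = 0.0114). Tfdp1, the partner of E2F factors that multiciliated cells use, was at 26.5 ± 4.28 and 52.6 ± 10.7 CPM (SD, n = 4), a log2 fold change of 0.99 ± 0.18 (SE; edgeR adjusted p = 0.0201). Lcn2, a neutrophil granule protein listed as a Hic1 target and also one of the immature neutrophil markers, was at 374 ± 77.1 and 1119 ± 391 CPM (SD, n = 4), a log2 fold change of 1.58 ± 0.24 (SE; edgeR adjusted p = 0.0113). All 3 missed the threshold without PyMT replicate 2 (adjusted p = 0.0576 for Stim2, 0.0846 for Tfdp1 and 0.0576 for Lcn2). Tfdp1 also missed it without PyMT replicate 4 (adjusted p = 0.0531), PyMT-Cxcr2-/- replicate 3 (0.0701) or PyMT-Cxcr2-/- replicate 4 (0.0648).

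Among 21 calcineurin-NFAT genes, 20 could be fitted between the TAN groups and Stim2 alone passed. The catalytic subunit Ppp3ca had a log2 fold change of 0.63 ± 0.16 (SE; edgeR adjusted p = 0.0667) and the second calcium sensor Stim1 one of 0.61 ± 0.15 (SE; edgeR adjusted p = 0.0597). Both missed the threshold, and both passed with DESeq2, as did Stim2 (higher) and the catalytic subunit Ppp3cc (lower). Ppp3cc was at -1.07 ± 0.35 (SE) in the edgeR fit (adjusted p = 0.148). Against BM neutrophils 3 of the 21 rose and 11 fell, and the median log2 fold change was -0.65. Ppp3ca, Ppp3cb, Ppp3r1, Stim1, Stim2, Orai1 and Orai2, the phosphatase and the calcium entry machinery upstream of it, were among those that fell. Ppp3cc, at a low level, rose by a log2 fold change of 3.44 ± 0.47 (SE; edgeR adjusted p = 1.4e-05), and by 4.12 without WT BM replicate 1. Of the paralogs of Rcan1, Rcan3 rose by 1.23 ± 0.25 (SE; edgeR adjusted p = 0.00052), while Rcan2 had a log2 fold change of -2.44 ± 0.81 (SE; edgeR adjusted p = 0.0163) on at most 23 counts a library.

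For Scimp, none of 16 fitted partners and related adaptors passed between the TAN groups with edgeR. At an unadjusted p under 0.05, 5 were higher and 0 lower without Cxcr2, and DESeq2 called 4 higher, Pag1, Tlr2 and Nfam1 among them. The share of all genes at an unadjusted p under 0.05 is not given here, and DESeq2 passed more genes than edgeR over all genes. Such counts are therefore a description only, for every list and for the markers. In this list 4 rose and 5 fell against BM neutrophils. Blnk, the cytosolic adaptor that Scimp binds, rose by a log2 fold change of 4.24 ± 0.33 (SE; edgeR adjusted p = 3.25e-08) and the DNA-sensing receptor Tlr9 by 4.65 ± 0.34 (SE; edgeR adjusted p = 1.64e-08). Csk and Pag1, which restrain Src-family kinases, were among the 5 that fell. For Lrrk2, none of 19 genes of its Rab pathway passed between the TAN groups with edgeR, while 3 were higher and 0 lower at an unadjusted p under 0.05 and DESeq2 called Rab43 higher. Of these genes 4 rose and 5 fell against BM neutrophils. Lrrk1, the paralog of Lrrk2, rose by 2.42 ± 0.19 (SE; edgeR adjusted p = 3.19e-08), opposite in direction to Lrrk2. Its level was 44.6 ± 12.9 CPM with Cxcr2, 40.1 ± 5.51 CPM without it and 7.92 ± 0.960 CPM in WT marrow (SD, n = 4), and the TAN groups overlapped.

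For Snai1, none of 11 fitted factors of epithelial-mesenchymal transition passed between the TAN groups with edgeR or DESeq2, and 1 was lower and 0 higher at an unadjusted p under 0.05. Its relatives Snai2, Twist1 and Twist2 were too low to be fitted. Zeb2, a repressor of the same targets, had 368 ± 47.0 CPM with Cxcr2 and 424 ± 40.8 CPM without it, and rose against 91.4 ± 14.3 CPM in BM neutrophils (SD, n = 4) by a log2 fold change of 2.11 ± 0.13 (SE; edgeR adjusted p = 3.73e-09). Cdh1, the E-cadherin gene that Snai1 represses, had a log2 fold change of -0.02 ± 0.56 (SE; edgeR adjusted p = 0.996) between the TAN groups and is also one of the epithelial markers. For Hic1, Lcn2 alone of 14 fitted partners and targets passed between the TAN groups, and 7 rose and 2 fell against BM neutrophils. Its paralog Hic2 rose against BM neutrophils by 2.53 ± 0.26 (SE; edgeR adjusted p = 7.19e-07). Between the TAN groups Hic2 had a log2 fold change of -0.66 ± 0.25 (SE; edgeR adjusted p = 0.231). For Ccno, 9 of 15 genes tied to it or to multiciliated cells could be fitted, and the program's own factors Mcidas, Gmnc, Cdc20b, Foxj1 and Deup1 were too low. Tfdp1 alone passed between the TAN groups, and 3 rose and 5 fell against BM neutrophils. Ung, the uracil glycosylase whose name Ccno once shared, rose against BM neutrophils by 2.74 ± 0.51 (SE; edgeR adjusted p = 0.000224) and had a log2 fold change of -0.15 ± 0.48 (SE; edgeR adjusted p = 0.947) between the TAN groups.

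**Figure D4:**
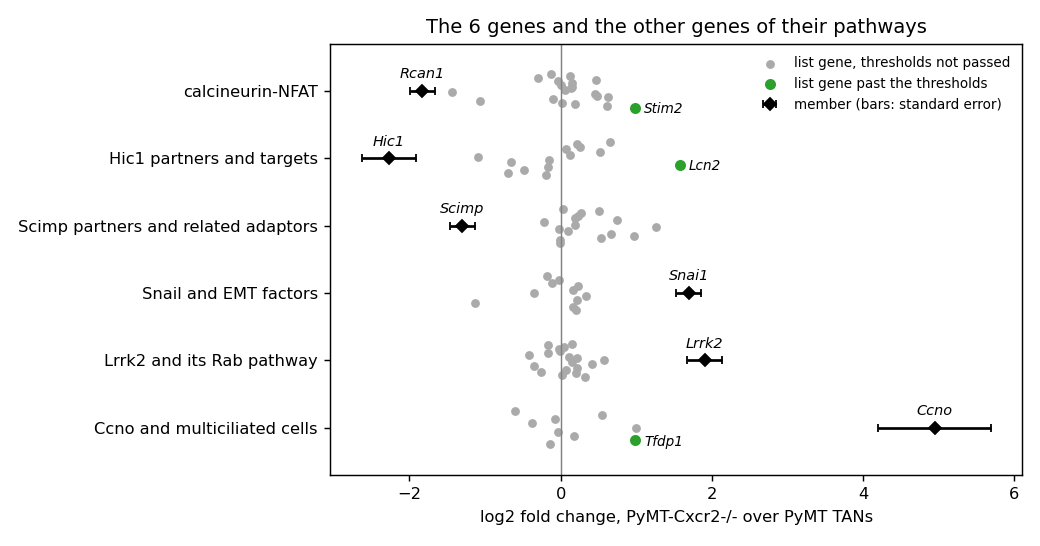
Log2 fold change of PyMT-Cxcr2-/- over PyMT TANs (horizontal axis) for each of the 6 genes (black diamonds, bars are standard errors) and the fitted genes of the list around it (points). Stim2, Tfdp1 and Lcn2 are the 3 list genes past the thresholds. The points of the lists lie on both sides of 0, with list medians from -0.04 (Hic1 list) to 0.21 (Scimp list).

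The genes whose pattern was nearest to that of each gene were found over the 12 libraries, by the root mean square difference of centered log2 CPM among 19185 genes with a symbol. This likeness includes the contrast the genes were chosen on. Hic1 and Rcan1 were near each other: Rcan1 was the nearest gene to Hic1 (0.47 log2 units), and Gm40915 came next for both (0.42 from Rcan1 and 0.49 from Hic1). Dpep2nb was nearest to Rcan1 (0.36), followed by Tnfrsf22 (0.43), and Siglecf came after Gm40915 for Hic1 (0.54). Dpep2nb was itself low, with mean levels of 0.980 CPM with Cxcr2, 0.224 CPM without it and 0 CPM in WT marrow. At such levels the prior count of 2, added before taking logs, weighs on the likeness. Siglecf, a sialic acid-binding receptor, had mean levels of 136 CPM with Cxcr2, 54.5 CPM without it and 16.9 CPM in WT marrow.

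Scimp was followed by the cell cycle inhibitor Cdkn1a (0.35 log2 units), Ms4a6d (0.44) and the cytokine Il1a (0.50). Cdkn1a had mean levels of 338 CPM with Cxcr2, 181 CPM without it and 2.55 CPM in WT marrow. Snai1 was followed by the lipoxygenase Alox15 (0.34), Gnb5 (0.43) and Asb4 (0.45). Asb4 was low, with mean levels of 0.287 CPM with Cxcr2, 0.651 CPM without it and 0 CPM in WT marrow. Lrrk2 had the closest likeness of the 6 genes, to Tmem40 (0.17), the GTPase Rab23 (0.20) and the RNA-binding protein Lin28a (0.20). Rab23 had mean levels of 5.42 CPM with Cxcr2, 15.9 CPM without it and 61.1 CPM in WT marrow. Ccno had no gene near it: its 3 nearest were G530011O06Rik (1.64), Ncs1 (1.74) and the collagen gene Col3a1 (1.77), against a median of 3.39 over all genes. G530011O06Rik was near or under the detection floor in PyMT TANs (mean of 0.0682 CPM) and BM neutrophils (0.0155 CPM).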

How the data were processed

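Neutrophils were sorted from tumors of PyMT and PyMT-Cxcr2-/- mice and from WT bone marrow. After depletion of ribosomal RNA the authors sequenced directional libraries with paired-end reads, which they trimmed, aligned with STAR (mm10) and assigned to genes with HTSeq. They deposited the resulting raw counts, 1 value a gene and library. FastQC, HTSeq and mm10 also stand in the submitters' processing notes. The annotation release and strand setting of the counting are not given in the sources used here. Reads that HTSeq assigned to no gene, 46.3 to 60.5% of each library, were left out of library sizes. Of 55335 genes, 55154 matched a GENCODE M21 symbol.

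Counts were fitted with edgeR 4.0.16 in R 4.3.3 (TMM, filterByExpr, robust quasi-likelihood test). The TAN groups were compared in a fit of their 8 libraries, and their mean was compared with BM neutrophils in a fit of 12 libraries. A gene passed with a change of at least 1.5-fold and an adjusted p under 0.05 (Benjamini-Hochberg), and a standard error is the log2 fold change over the square root of F. The members and lists were chosen with earlier results of these data known. Named were the 6 genes, Cxcr2, list genes past the thresholds or standing beside a member, the annotated neighbors, and the 3 genes nearest in pattern (prior count 2). Replicates of a group differed beyond sampling noise (chi-square per degree of freedom of 22.6 to 134). The test was tried on simulated counts. Alternatives were RLE and upper-quartile factors, other count filters, no robust estimation, DESeq2 1.42.0, a replicate block, an adjustment for the GC content and length of genes, and leaving out each library. The values of 1 list gene are not reported here.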

Additional observations from a re-analysis of the deposited data

Results flagged for a closer look

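Of 39 groups of 4 libraries examined for 1 library apart from the rest (by Dixon's test on the gap to the nearest library over the group's range), 3 had such a library, and chance alone gives about 1.95. Ccno was at 2.49 CPM in PyMT TAN replicate 3, a gap of 0.957 of the range. Ccno was also at 34.5 CPM in PyMT-Cxcr2-/- TAN replicate 3, a gap of 0.851 of the range. The summed level of the immature neutrophil markers was 8429 CPM in PyMT-Cxcr2-/- TAN replicate 4, a gap of 0.852 of the range. The cause of these values was not tested.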

How the results depend on the processing

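The 6 genes kept their direction in all 18 alternatives of the TAN comparison and all 23 of the comparison with BM neutrophils. This is a description only. The genes were chosen on the TAN comparison, and their groups did not overlap, so that leaving out 1 library could hardly reverse a direction in either comparison. In the alternatives of the comparison with BM neutrophils that kept both TAN groups, the 6 genes also stayed past the thresholds. For Ccno this is not free of its choice, as stated above. Fits of 1 TAN group alone against BM neutrophils hold part of the difference the genes were chosen on, so only their log2 fold changes are given. Between the TAN groups, leaving out PyMT TAN replicate 3 moved Ccno to 6.45, and Hic1 was at -1.90 without PyMT TAN replicate 1. Against BM neutrophils, using 1 TAN group alone moved the values most, from 2.19 to 3.94 for Rcan1, 2.10 to 3.86 for Snai1, -3.74 to -1.76 for Lrrk2, 3.12 to 8.08 for Ccno, 1.91 to 4.09 for Hic1 and 6.67 to 7.90 for Scimp. Scaling by library total alone moved the mean of Snai1 in PyMT TANs to 23.1 CPM, of Lrrk2 in BM neutrophils to 1186 CPM and of Scimp in PyMT TANs to 52.0 CPM. Counts of genes past the thresholds between the TAN groups, 255 higher and 110 lower in PyMT-Cxcr2-/- TANs, depended strongly on the setting, so the share of 1.98% is not a stable figure. They were 471 higher without the count filter, 692 and 294 with DESeq2, 151 and 63 with the GC and length adjustment, and 579 and 307 with all 12 libraries in 1 fit. With 1 library left out they ranged from 10 to 427 higher and from 13 to 100 lower. Without PyMT TAN replicate 1 there were 427 higher, without replicate 2 there were 10 and 13, without replicate 3 there were 148 higher, and without replicate 4 there were 123 and 66. Without PyMT-Cxcr2-/- TAN replicate 1 there were 166 and 47, without replicate 2 there were 46 lower, without replicate 3 there were 58 and 25, and without replicate 4 there were 68 and 28. The cause was not tested. Replicate numbers did not pair the libraries (mean correlation of deviations of same-numbered TAN libraries -0.13, and 0.04 for other numbers). With the replicate block there were 4 higher and 9 lower, and 3 and 5 with the block and the GC and length adjustment together, an alternative chosen after seeing the data. With the block Ccno was at 5.56, and Stim2 (adjusted p = 0.104), Tfdp1 (0.131) and Lcn2 (0.104) missed the threshold. With both the block and the GC and length adjustment they missed it too (0.134, 0.141 and 0.125, edgeR). Counts against BM neutrophils stayed within 1.5 times. Ccno, Scimp and Hic1 rest on few counts in BM neutrophils, which limits the precision of their fold changes there.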
